A study of Homo sapiens with 8 samples.

Results

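Polycomb and trithorax proteins and the ATP-dependent chromatin remodellers set which genes are kept silent and which stay open to transcription. Polycomb repressive complex 2 (PRC2) methylates histone H3 and Polycomb repressive complex 1 (PRC1) ubiquitinates histone H2A, and both keep developmental genes silent. The trithorax side includes the COMPASS histone methyltransferases and the SWI/SNF remodellers, while demethylases, acetyltransferases, deacetylases and DNA methyltransferases add or take off further marks. The genes for these proteins were taken by a rule on symbols alone. No measured value enters the rule, but it was chosen with earlier results of these data known. Of the 8801 gene IDs in the deposited tables, 104 matched. They were sorted into 14 roles. A further 20 of the 124 symbols written into the role lists were not analysed here.

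The cells were HEK293T, a human embryonic kidney cell line, as Pcif1-KO and as WT cells. PCIF1 writes m6Am, a methylated adenosine that can be the first base after the mRNA cap. Each genotype was given siPCF11, an siRNA against the cleavage, polyadenylation and termination factor PCF11, or siScram, a scrambled control siRNA. The dose was 5 pmol and nuclear RNA was taken after 48 h, the series' design text naming s4U labelling of nascent RNA and sequencing of mRNA 3′ ends. This gave 4 groups of 1 library each: Pcif1-KO with siPCF11, WT with siPCF11, Pcif1-KO with siScram and WT with siScram. The series' title concerns m6Am, PCF11 and full-length transcription. The sources used here do not say how the knockout was made, how many clones it comprises or whether the 2 siRNAs went to parallel cultures. A further 4 Pcif1-KO libraries with PCIF1-WT, PCIF1-CD or EGFP overexpression were not analysed here.

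The values are the authors' log2 ratios of WT over Pcif1-KO, 1 per gene and siRNA, so a positive value is lower in Pcif1-KO than in WT cells and a negative one higher in Pcif1-KO cells. Levels in single libraries were not analysed here, so the read depth is unknown, the identity of the cells could not be checked by marker levels, and less RNA per cell cannot be told apart from fewer cells with that RNA. PCIF1 itself was not analysed here, which leaves the knockout label without a check from its target. PCF11 had ratios of -0.45 with siPCF11 and -0.44 with siScram in the authors' deposited tables, which compare genotypes within 1 siRNA and so do not measure its knockdown. Ratios also differed by chromosome. The median ratio of chromosome 11 was -0.27 with siPCF11 and -0.29 with siScram, and that of chromosome 20 was 0.37 with siPCF11 and 0.29 with siScram. Values were therefore also computed after subtracting the median of a gene's neighbours within 10 Mb windows (window centring). Where a window held too few genes, the median of the gene's chromosome was subtracted instead. Among others, that was so for CHD7 and EED with both siRNAs and for HDAC8 with siScram. Window centring turned the sign of 10 of 103 chromatin genes with siPCF11, namely BRD9, CBX6, CHD1L, CHD7, DNMT3B, HDAC1, INO80C, SMARCA5, SUZ12 and TET3. With siScram it turned that of 11 of 99, namely ARID1A, CBX6, DPF2, EZH2, HDAC5, KDM2A, KDM2B, KDM6A, RBBP5, SETD1A and SUZ12.

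A ratio with siPCF11 was listed for 103 of the 104 chromatin genes, with siScram for 99 and with both for 98. The authors had placed 54 of the 104 (51.9%) in their m6Am class, against 48.8% of all listed genes, and 79 (76.0%) in their long class, against 60.0%. Median RefSeq span was 60.7 kb for the chromatin genes and 30.1 kb for all listed genes. The 25 chromatin genes of the short class had a median RefSeq span of 15.4 kb, but not all had short spans. Of these 25, 5 exceeded 100 kb, against 30 of 79 in the long class. The 5 were CHD6 at 216 kb, CHD7 at 189 kb, PBRM1 at 141 kb, TET1 at 134 kb and NSD2 at 111 kb.

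Since m6Am can form only where transcription starts with A, the first base of the annotated transcript is shown for genes from both m6Am classes whose ratios are described further on. Sequences are 30 bases around the RefSeq start on GRCh38.p14, read 5′ to 3′ on the gene's strand, with the first transcribed base as the only capital. The first 6 are m6Am genes and the last 4 are non-m6Am genes by the authors' classes.
RNF2, chr1:185045539-185045568, plus strand: gcggaagctgaggctcgccAtattgtgcgg
HDAC8, chrX:72572833-72572862, minus strand: agcaccgctgcggccgatcAgaggagcagg
EZH1, chr17:42745030-42745059, minus strand: cgcggcgcgcatgcgtcctAgcagcgggac
KDM4A, chr1:43650130-43650159, plus strand: ctgcgcagatgccgactttAgaggaggcgg
KAT2A, chr17:42121357-42121386, minus strand: caacgcctgcgcactgagcGctggttgccc
MEN1, chr11:64810541-64810570, minus strand: ccagcaggctccgggcggcGtgcgccgcgg
DPF1, chr19:38229685-38229714, minus strand: cgcagccccaagaatgaatGaaatcgtagc
EZH2, chr7:148884281-148884310, minus strand: atggcgattgggctgccgcGtttggcgctc
JARID2, chr6:15246050-15246079, plus strand: cgccgccgccgccgccgctGgagttgactc
EED, chr11:86244734-86244763, plus strand: gacattggtggtgtagcccAttccacagac

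The annotated start base matched the authors' class for some of these genes and not for others. RNF2, HDAC8, EZH1 and KDM4A start with A, while KAT2A and MEN1 are m6Am genes with an annotated G, and EED is a non-m6Am gene with an annotated A. Of the 87 chromatin genes with a RefSeq promoter entry, 16 of 41 m6Am genes (39.0%) and 14 of 46 non-m6Am genes (30.4%) start with A. Among all listed genes with an entry, A is the annotated start base of 49.6% of m6Am and 39.8% of non-m6Am genes. The RefSeq start need not be the start used in these cells. By start base, the median ratio of the chromatin genes was -0.0092 with siPCF11 and -0.022 with siScram for the 30 starting with A, and 0.070 with siPCF11 and 0.022 with siScram for the 46 starting with G.

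As a group the chromatin genes lay near 0 with both siRNAs, and single genes lay on both sides of it. Their median ratio was 0.058 with siPCF11 (middle 50% of genes -0.24 to 0.27) and -0.0095 with siScram (-0.13 to 0.18), beside -0.010 and -0.0096 for all listed genes with siPCF11 and siScram. With siPCF11, 56 of 103 were above 0 (54.4%), and with siScram 48 of 99 (48.5%), where 48.9% of all listed genes were above 0 with either siRNA. Past 0.5, a 1.41-fold difference, siPCF11 had 9 genes above and 10 below, which is 8.74% and 9.71% of the 103, against 8.81% and 8.7% of all listed genes. With siScram 6 of 99 were above 0.5 (6.06%, against 6.11% of all listed genes) and 2 were below -0.5 (2.02%, against 6.98%). At the lower limit of 0.3, 20 were above (20.1% of all listed genes were) and 18 below (20.8%) with siPCF11, and 13 above (16.7%) and 9 below (18.7%) with siScram. In either direction, 18.4% of the chromatin genes were past 0.5 with siPCF11 (17.5% of all listed genes) and 8.08% with siScram (13.1%), and 36.9% were past 0.3 with siPCF11 (40.9%) and 22.2% with siScram (35.4%). All of them stayed within 1 of 0, where 1.49% of all listed genes lay past 1 with siPCF11 (0.835% above, 0.659% below) and 0.912% with siScram (0.393% above, 0.519% below). The SD over the chromatin genes was 0.36 with siPCF11 and 0.26 with siScram, against 0.39 and 0.35 over all listed genes. These shares lie near the background with siPCF11, and with siScram the lower tail held fewer of the chromatin genes than of all listed genes. Counts with a single siRNA rest on 1 library per genotype and carry no test.

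**Figure D1:**
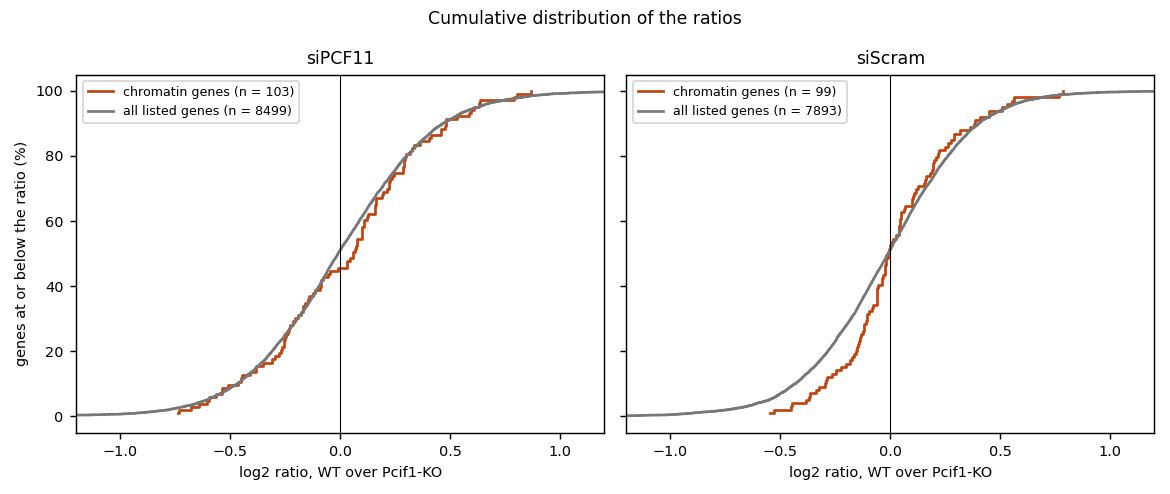
Cumulative share of genes (%, y axis) at or below each log2 ratio of WT over Pcif1-KO (x axis) with siPCF11 (left) and siScram (right), for the chromatin genes and for all listed genes. The curves run close together with siPCF11, and with siScram the chromatin genes have fewer values in the lower tail, 2 of 99 being below -0.5.

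Over both siRNAs, 2 of 98 chromatin genes passed the test, both lower in Pcif1-KO than in WT cells. limma was fitted to the 2 ratios of each of 7591 genes, with Benjamini-Hochberg adjustment over all of them, and used 1 SD, 0.28, for every gene, so each mean has an SE of 0.20. It called 5.49% of all genes tested, 2.67% as higher in WT and 2.82% as higher in Pcif1-KO cells, so the 2.04% of chromatin genes called lie below that background. At an unadjusted p under 0.05, 13 of the 98 (13.3%) were reached, 7 higher in WT and 6 higher in Pcif1-KO cells, against 17.7% of all genes. Where siPCF11 truly alters a ratio, the fit takes that as noise, and it does not extend to other clones or cultures.

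**Figure D2:**
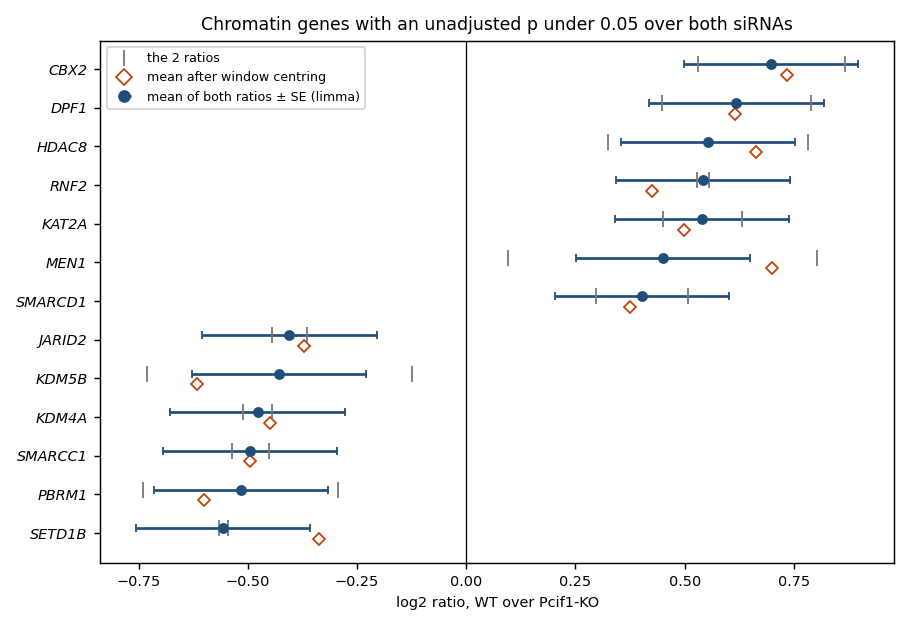
Mean log2 ratio of WT over Pcif1-KO (x axis) of the 13 chromatin genes with an unadjusted limma p under 0.05, with its SE as the bar, the 2 ratios as ticks and the mean after window centring as diamonds. CBX2 is highest at 0.70 and SETD1B lowest at -0.56, and every diamond lies on the same side of 0 as its circle.

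CBX2 was the gene with the highest mean. It encodes a chromodomain subunit of PRC1 that compacts chromatin, and lies on chromosome 17 (GRCh38 79777311 to 79787983). In the authors' deposited tables its ratio was 0.87 with siPCF11 and 0.53 with siScram. Both are lower in Pcif1-KO cells, by 1.82-fold with siPCF11 and 1.44-fold with siScram. The mean of 0.70 ± 0.20 (SE from the SD that limma used for every gene) passed limma's test (adjusted p = 0.014). It did so too after window centring (0.73, adjusted p = 0.018). CBX8, a further PRC1 chromodomain gene, lies close to it. CBX8 had 0.16 with siPCF11 and -0.23 with siScram in the authors' deposited tables. CBX8 was thus closer to 0 than CBX2 with siPCF11 and of the other sign with siScram.

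DPF1 was the second gene called. It encodes a PHD finger subunit of the neuronal form of SWI/SNF, and lies on chromosome 19 (GRCh38 38211006 to 38229695). The authors' deposited tables gave 0.79 with siPCF11 and 0.45 with siScram, and both are again lower in Pcif1-KO cells. Its mean of 0.62 ± 0.20 had an adjusted p of 0.040 in limma, but after window centring the mean of 0.62 no longer passed (adjusted p = 0.063), nor did it with chromosome centring (0.057) or with long and short genes fitted apart (0.070).

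HDAC8 and MEN1 passed the test after chromosome or window centring and not as deposited. HDAC8, an X-linked deacetylase that acts on the cohesin subunit SMC3, was at 0.32 with siPCF11 and 0.78 with siScram in the authors' deposited tables. Its mean of 0.55 had an adjusted limma p of 0.079 as deposited and 0.043 after window centring, where the mean was 0.66. With siScram the median taken off HDAC8 was that of its whole chromosome. MEN1 encodes menin, which tethers the KMT2A and KMT2B complexes, and lies on chromosome 11. Ratios of 0.80 with siPCF11 and 0.10 with siScram stood in the authors' deposited tables, in a window whose other genes had medians of -0.17 and -0.34. Centred on that window MEN1 was at 0.97 with siPCF11 and 0.43 with siScram, and its mean of 0.70 had an adjusted limma p of 0.031, against 0.20 for the deposited mean of 0.45.

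**Figure D3:**
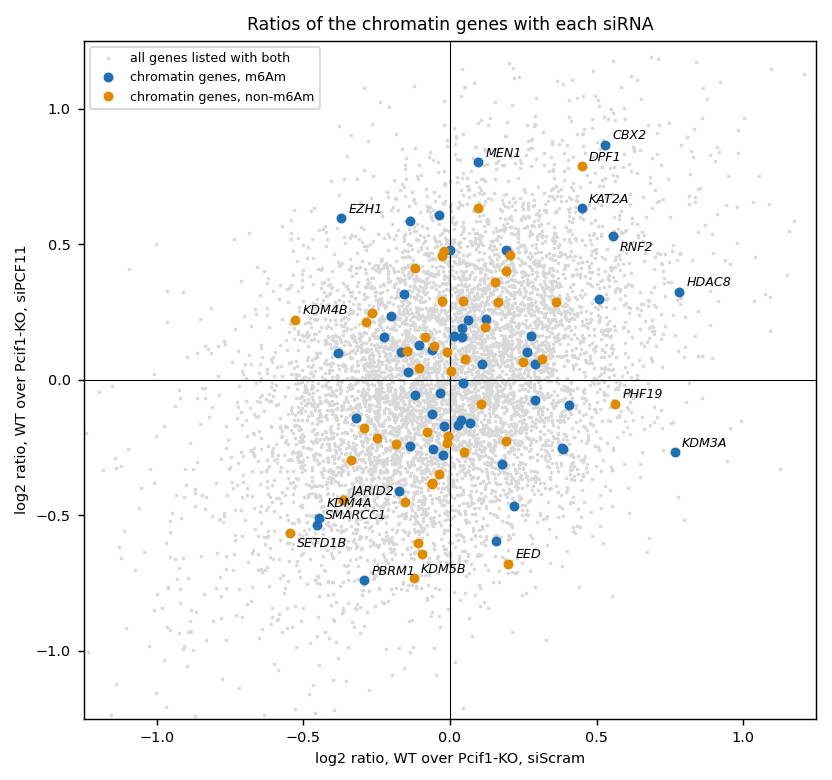
Log2 ratio of WT over Pcif1-KO with siPCF11 (y axis) against siScram (x axis) for chromatin genes of the authors' m6Am and non-m6Am classes, over all genes listed with both siRNAs (grey). Genes beyond the axis ends are not drawn. CBX2 and RNF2 lie above 0.5 and SETD1B below -0.5 on both axes, and EZH1 and EED lie on opposite sides of 0 with the 2 siRNAs.

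The 2 ratios of a gene come from separate library pairs, and the labels do not say whether both pairs are of the same clones. Of 98 chromatin genes, 30 were above 0 and 28 below 0 with both siRNAs, 23 above 0 only with siPCF11 and 17 above 0 only with siScram. The 58 of 1 sign are 59.2%, beside 61.7% of all genes. CBX2 and RNF2 were above 0.5 with both siRNAs (2.04%, against 2.13% of all genes) and SETD1B was below -0.5 with both (1.02%, against 2.25%). Across the 98 genes the ratios had a Pearson r of 0.29 and a Spearman rho of 0.26, and across 7591 genes an r of 0.43 and a rho of 0.36, as descriptions over genes that share their libraries. The ratio was more than 0.5 higher with siPCF11 than with siScram for 8 chromatin genes (8.16%, against 10.9% of all genes) and more than 0.5 lower for 9 (9.18%, against 9.91%), 17.3% in all against 20.8%. The median change was -0.016 for chromatin genes and 0.0072 for all genes.

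**Figure D4:**
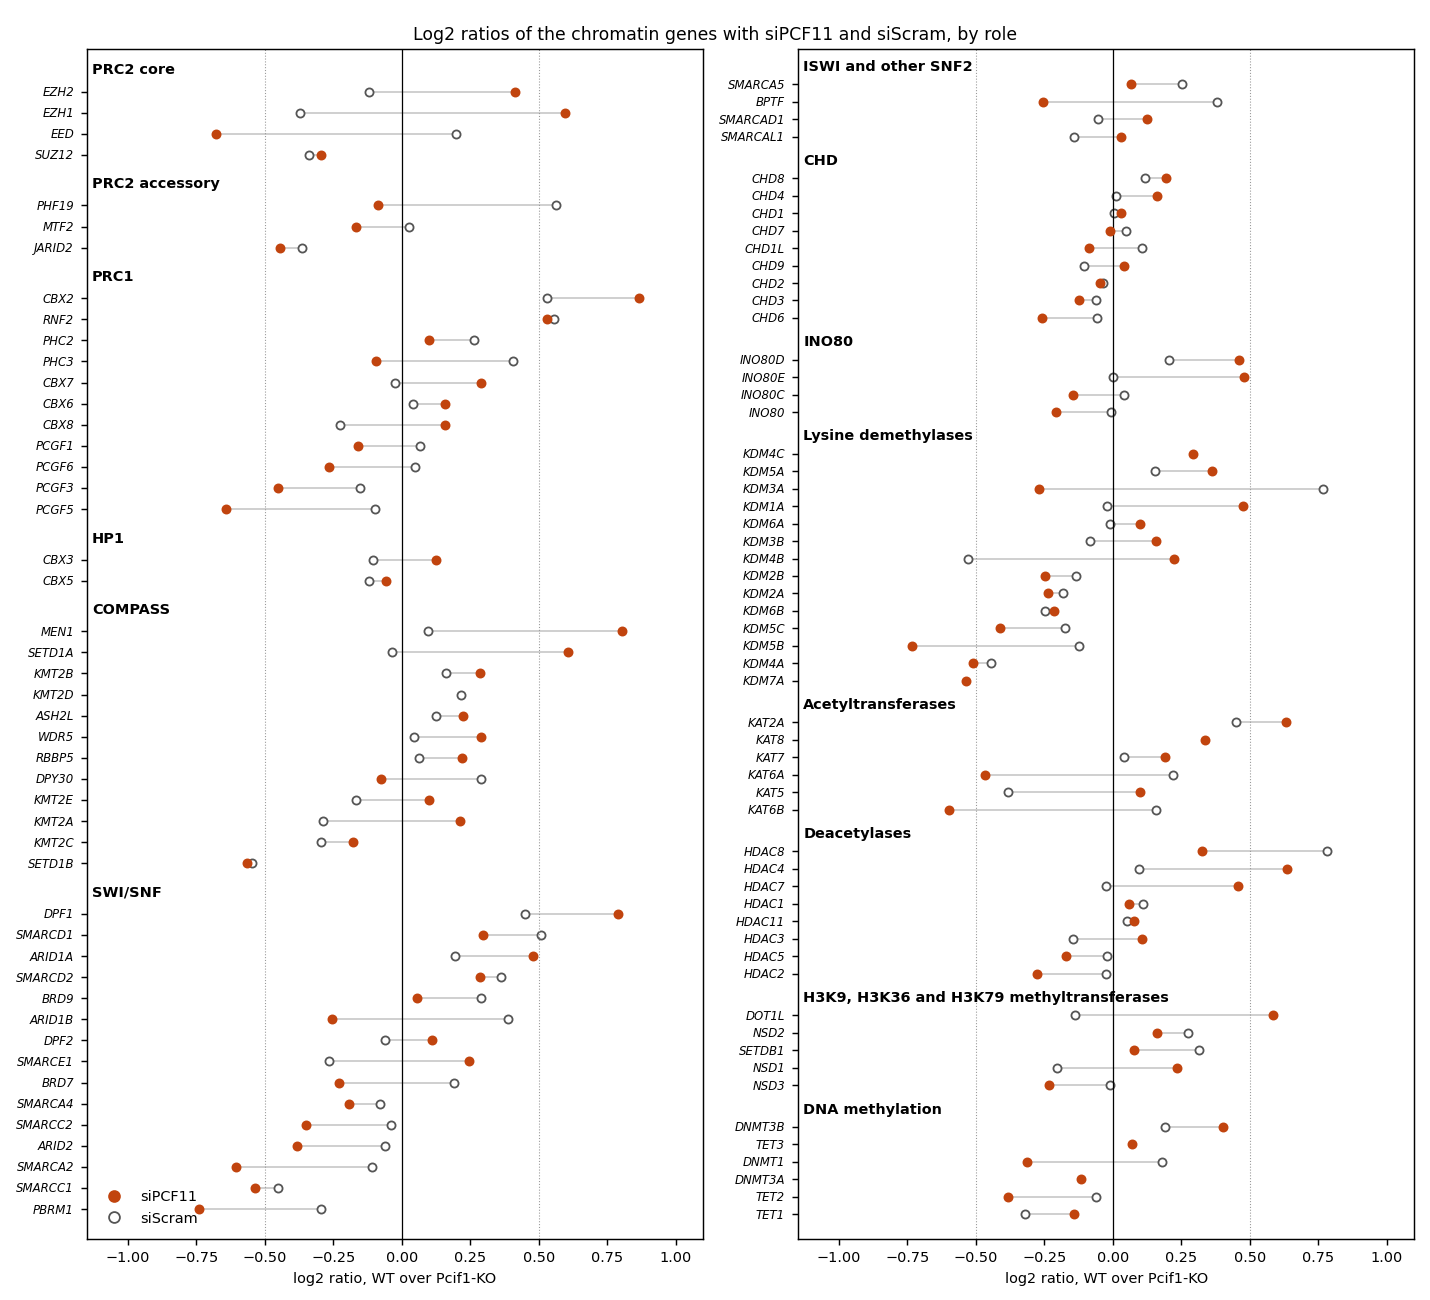
Log2 ratio of WT over Pcif1-KO (x axis) of the chromatin genes reported by name (rows, grouped by role) with siPCF11 (filled) and siScram (open). Dotted lines mark 0.5 and -0.5. The CHD genes keep between -0.26 and 0.19, while PRC2 and SWI/SNF genes spread to both sides.

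PRC2 consists of the methyltransferase EZH1 or EZH2, the scaffold SUZ12 and EED, which binds the methylated histone tail. Its core genes did not share a sign. EZH1 had ratios of 0.59 with siPCF11 and -0.37 with siScram in the authors' deposited tables. EZH2 was at 0.41 with siPCF11 and -0.12 with siScram, per the authors' deposited tables. EED had the opposite order in the authors' deposited tables, -0.68 with siPCF11 and 0.20 with siScram. By their ratios with siPCF11 both methyltransferase genes were thus lower, and EED higher, in Pcif1-KO cells, and with siScram the deposited signs were turned round for all 3. After window centring EZH2 was above 0 with both siRNAs, at 0.52 with siPCF11 and 0.12 with siScram. EZH1 and EED kept opposite signs after centring, EZH1 at 0.48 with siPCF11 and -0.35 with siScram, and EED at -0.41 and 0.49. For EED the median taken off was that of its whole chromosome. SUZ12 was at -0.29 with siPCF11 and -0.34 with siScram in the authors' deposited tables, as were the other genes of its window (-0.32 and -0.40), so that its centred values were 0.023 and 0.061. No PRC2 core gene passed limma's test, with adjusted p-values between 0.42 and 0.83.

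The PRC2 accessory subunits JARID2, PHF19 and MTF2 help to bring the complex to its sites. JARID2 was below 0 with both siRNAs, at -0.45 with siPCF11 and -0.36 with siScram in the authors' deposited tables. Its mean of -0.40 had an adjusted limma p of 0.26. PHF19 had -0.09 with siPCF11 and 0.56 with siScram in the authors' deposited tables, the highest value of any PRC2 gene with siScram. MTF2 had -0.17 with siPCF11 and 0.03 with siScram in the authors' deposited tables. All 3 were below 0 with siPCF11, and JARID2 alone was below 0 with siScram.

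In PRC1 the E3 ligase RNF2, also called RING1B, is joined by 1 PCGF protein, which defines the variant, and by CBX and PHC proteins in its canonical forms. RNF2 was at 0.53 with siPCF11 and 0.55 with siScram in the authors' deposited tables. Its values hardly differed between the siRNAs, and the mean of 0.54 had an adjusted limma p of 0.089, and of 0.25 after window centring. The Polycomb genes CBX2, CBX6, CBX7 and CBX8 were all above 0 with siPCF11, from 0.16 for CBX6 to 0.87 for CBX2 in the authors' deposited tables. With siScram CBX2 and CBX6 were above 0, and CBX7 and CBX8 below it. The shared sign with siPCF11 was lost after window centring, where CBX6 was at -0.12 with siPCF11 and -0.09 with siScram, and CBX7 at 0.02 and -0.16. The 4 listed genes with a PCGF symbol were all below 0 with siPCF11, as deposited and after centring.

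PCGF5 was the lowest of these, at -0.64 with siPCF11 and -0.10 with siScram in the authors' deposited tables. PCGF3 followed at -0.45 with siPCF11 and -0.15 with siScram in the authors' deposited tables. PCGF6 had -0.27 with siPCF11 and 0.05 with siScram, and PCGF1 -0.16 and 0.07, per the authors' deposited tables. Each of these genes with a PCGF symbol was therefore nearer to 0 with siScram than with siPCF11. That did not hold for BMI1, a further PCGF-family gene, whose symbol the rule did not match. BMI1 was at -0.25 with siPCF11 and 0.49 with siScram in the authors' deposited tables. The polyhomeotic gene PHC3 was at -0.09 with siPCF11 and 0.41 with siScram, and PHC2 at 0.10 and 0.26, per the authors' deposited tables. In all 7 of 12 PRC1 genes were above 0 with siPCF11 and 7 of 12 with siScram, and only CBX2 passed the test. The HP1 genes CBX3 and CBX5, which bind heterochromatin and are not Polycomb genes, stayed within 0.13 of 0 with both siRNAs in the authors' deposited tables.

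COMPASS complexes methylate histone H3 at promoters and enhancers, with a KMT2 or SETD1 enzyme on a shared core. With siPCF11, 8 of 11 COMPASS genes were above 0 (median 0.22), and with siScram 7 of 12 (median 0.053). None of them passed limma's test. The paralogous enzymes SETD1A and SETD1B differed by 1.17 with siPCF11 and by 0.51 with siScram. SETD1A was at 0.61 with siPCF11 and -0.04 with siScram in the authors' deposited tables. SETD1B was at -0.57 with siPCF11 and -0.55 with siScram in the authors' deposited tables, the lowest COMPASS gene with each siRNA and the lowest of all the chromatin genes with siScram. The SETD1B mean of -0.56 had an adjusted limma p of 0.077, and the other genes of its window had medians of -0.22 with both siRNAs, which left a centred mean of -0.34 (adjusted p = 0.39).

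Genes of the COMPASS core lay closer to 0. WDR5, whose product binds the enzyme, had 0.29 with siPCF11 and 0.04 with siScram in the authors' deposited tables. RBBP5 had 0.22 with siPCF11 and 0.06 with siScram, and ASH2L 0.22 and 0.12, per the authors' deposited tables. DPY30, the fourth core gene, was at -0.08 with siPCF11 and 0.29 with siScram in the authors' deposited tables, so it alone of the 4 had its higher deposited value with siScram.

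Of the KMT2 enzymes, KMT2A on chromosome 11 differed most between the siRNAs, with 0.21 with siPCF11 and -0.29 with siScram in the authors' deposited tables. After window centring KMT2A was at 0.51 with siPCF11 and -0.01 with siScram, so its siScram value was that of its neighbours. KMT2B, its closest paralogue, was above 0 with both, at 0.29 with siPCF11 and 0.16 with siScram in the authors' deposited tables. KMT2C, an enhancer enzyme, was below 0 with both, at -0.18 with siPCF11 and -0.29 with siScram in the authors' deposited tables. The related KMT2E is counted in the COMPASS role here, though it is not a COMPASS subunit. KMT2E had 0.10 with siPCF11 and -0.17 with siScram in the authors' deposited tables. KMT2D, the second enhancer enzyme, was listed with siScram only, at 0.22 in the authors' deposited table. The enzymes of COMPASS thus had no common sign with either siRNA.

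SWI/SNF complexes slide and evict nucleosomes and exist as BAF, PBAF and non-canonical BAF. The 15 SWI/SNF genes had a median of -0.19 with siPCF11 (7 above 0) and -0.038 with siScram (7 above 0). PBRM1, whose product is found in PBAF, was the lowest of all the chromatin genes with siPCF11, at -0.74, and was at -0.29 with siScram in the authors' deposited tables. Its mean of -0.52 had an adjusted limma p of 0.11. ARID2 and BRD7, further PBAF genes, were below 0 with siPCF11 as well. ARID2 had -0.38 with siPCF11 and -0.06 with siScram, and BRD7 -0.23 and 0.19, per the authors' deposited tables. ARID1A, the ARID subunit of BAF, was on the other side at 0.48 with siPCF11 and 0.19 with siScram in the authors' deposited tables, but its window had medians of 0.31 and 0.25. Its paralogue ARID1B was at -0.25 with siPCF11 and 0.39 with siScram in the authors' deposited tables. BRD9, whose product is found in non-canonical BAF, was at 0.06 with siPCF11 and 0.29 with siScram in the authors' deposited tables.

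Of the subunits that BAF and PBAF share, the scaffold gene SMARCC1 was at -0.54 with siPCF11 and -0.45 with siScram in the authors' deposited tables. The mean of -0.49 for SMARCC1 had an adjusted limma p of 0.14. Its paralogue SMARCC2 was at -0.35 with siPCF11 and -0.04 with siScram in the authors' deposited tables. The alternative ATPase genes were below 0 with both siRNAs too, SMARCA2 with -0.60 with siPCF11 and -0.11 with siScram in the authors' deposited tables. SMARCA4 had -0.19 with siPCF11 and -0.08 with siScram in the authors' deposited tables. Against these, the accessory subunit genes SMARCD1 and SMARCD2 were above 0 with both siRNAs. SMARCD1 was at 0.30 with siPCF11 and 0.51 with siScram, and SMARCD2 at 0.29 and 0.36, per the authors' deposited tables. SMARCE1 was at 0.25 with siPCF11 and -0.27 with siScram, and DPF2, the paralogue of DPF1, at 0.11 and -0.06, per the authors' deposited tables. DPF2 lies on chromosome 11 and was at 0.28 with siPCF11 and 0.27 with siScram after window centring. DPF1 was the only one of the 15 to pass limma's test.

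Of the remaining remodellers, the CHD genes lay closest to 0. The 9 of them, which include the NuRD ATPases CHD3 and CHD4, ranged from -0.26 for CHD6 to 0.19 for CHD8 with siPCF11 in the authors' deposited tables. With siScram they ranged from -0.10 for CHD9 to 0.12 for CHD8 in the authors' deposited tables. Their SD over genes was 0.14 with siPCF11 and 0.076 with siScram, against 0.39 and 0.35 over all listed genes. CHD6 lies on chromosome 20, and relative to its window it was at -0.56 with siPCF11 and -0.35 with siScram. Within INO80, a remodeller that slides nucleosomes, the subunit gene INO80E was at 0.48 with siPCF11 and 0.00015 with siScram in the authors' deposited tables. INO80D was at 0.46 with siPCF11 and 0.21 with siScram in the authors' deposited tables. The ATPase gene INO80 itself and the subunit gene INO80C were below 0 with siPCF11. INO80 was at -0.21 with siPCF11 and -0.01 with siScram, and INO80C at -0.15 and 0.04, per the authors' deposited tables. After window centring INO80C was at 0.30 with siPCF11 and 0.38 with siScram. BPTF, the large subunit of the ISWI complex NURF, was at -0.25 with siPCF11 and 0.38 with siScram, while the ISWI ATPase gene SMARCA5 was at 0.07 and 0.25, per the authors' deposited tables.

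More lysine demethylases lay below 0 than above it as deposited. Their median was -0.23 with siPCF11, with 8 of 14 below 0, and -0.13 with siScram, with 10 of 12 below 0, where 51.1% of all listed genes were below 0 with either siRNA. After window centring 8 of 14 were below 0 with siPCF11 and 7 of 12 with siScram, and the medians were -0.051 with siPCF11 and -0.062 with siScram. No demethylase passed limma's test. KDM4A, which removes methyl groups from H3K9 and H3K36, was at -0.51 with siPCF11 and -0.45 with siScram in the authors' deposited tables. Its mean of -0.48 had an adjusted limma p of 0.16. The H3K4 demethylase gene KDM5B was at -0.73 with siPCF11 and -0.12 with siScram in the authors' deposited tables, and its paralogue KDM5A was at 0.36 and 0.15. KDM5B had an adjusted limma p of 0.22, and 0.074 after window centring.

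KDM3A, a hypoxia-induced H3K9 demethylase gene, differed most between the siRNAs of all the chromatin genes, with -0.27 with siPCF11 and 0.77 with siScram in the authors' deposited tables. KDM4B had the opposite order in the authors' deposited tables, with 0.22 with siPCF11 and -0.53 with siScram. KDM1A, which encodes the demethylase LSD1, was at 0.47 with siPCF11 and -0.02 with siScram in the authors' deposited tables. After window centring KDM1A was at 0.16 with siPCF11 and -0.27 with siScram. Genes for H3K9 and H3K4 demethylases were thus found on both sides of 0.

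Of the H3K27 demethylases, which act against PRC2, KDM6A had 0.10 with siPCF11 and -0.01 with siScram in the authors' deposited tables. KDM6B was below 0 with both, at -0.22 with siPCF11 and -0.25 with siScram in the authors' deposited tables. KDM2B, which recruits a variant PRC1 to CpG islands, was likewise at -0.25 with siPCF11 and -0.13 with siScram in the authors' deposited tables. After window centring KDM2B was at -0.03 with siPCF11 and 0.11 with siScram, while KDM6B stayed below 0 with both. All these values lie within the SD of 0.28. KDM7A and KDM4C were listed with siPCF11 only, with -0.54 for KDM7A and 0.29 for KDM4C in the authors' deposited tables.

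Among acetyltransferases KAT2A, the enzyme of the SAGA coactivator also called GCN5, was at 0.63 with siPCF11 and 0.45 with siScram in the authors' deposited tables. Its mean of 0.54 had an adjusted limma p of 0.089. The MYST-family paralogues KAT6A and KAT6B were both of opposite sign with the 2 siRNAs. KAT6A had -0.47 with siPCF11 and 0.22 with siScram in the authors' deposited tables. KAT6B had -0.60 with siPCF11 and 0.16 with siScram in the authors' deposited tables. KAT5, the TIP60 enzyme on chromosome 11, showed the opposite order, 0.10 with siPCF11 and -0.38 with siScram in the authors' deposited tables. Centred on its window KAT5 was at 0.27 with siPCF11 and -0.06 with siScram.

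Deacetylase genes included HDAC8, the highest of all the chromatin genes with siScram, and the class IIa genes HDAC4, HDAC5 and HDAC7. HDAC4 was at 0.63 with siPCF11 and 0.10 with siScram in the authors' deposited tables. HDAC7 had 0.46 with siPCF11 and -0.03 with siScram in the authors' deposited tables. HDAC5 was on the other side, at -0.17 with siPCF11 and -0.02 with siScram in the authors' deposited tables, so the class IIa genes shared no sign. Of the class I genes, HDAC1, HDAC2 and HDAC3, catalytic subunits of corepressor complexes, stayed between -0.28 and 0.11 with both siRNAs in the authors' deposited tables. HDAC8, also of class I, lay outside that range, at 0.32 with siPCF11 and 0.78 with siScram.

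DOT1L, the H3K79 methyltransferase gene, was at 0.58 with siPCF11 and -0.14 with siScram in the authors' deposited tables. The H3K36 methyltransferase genes were closer to 0 than DOT1L with siPCF11, and NSD1 and NSD2 farther from it with siScram. NSD1 had 0.23 with siPCF11 and -0.20 with siScram in the authors' deposited tables. NSD2 had 0.16 with siPCF11 and 0.27 with siScram, and NSD3 -0.23 and -0.01, per the authors' deposited tables. SETDB1, an H3K9 methyltransferase gene, was at 0.08 with siPCF11 and 0.31 with siScram in the authors' deposited tables.

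The maintenance DNA methyltransferase gene DNMT1 was at -0.31 with siPCF11 and 0.18 with siScram in the authors' deposited tables. DNMT3B, a de novo methyltransferase gene on chromosome 20, was at 0.40 with siPCF11 and 0.19 with siScram in the authors' deposited tables. After window centring DNMT3B was at -0.01 with siPCF11 and 0.02 with siScram, so it lay with its neighbours. TET1 and TET2, whose products oxidise methylcytosine, were below 0 with both siRNAs. TET1 had -0.14 with siPCF11 and -0.32 with siScram, and TET2 -0.38 and -0.06, per the authors' deposited tables. DNMT3A and TET3 were listed with siPCF11 only, with -0.12 for DNMT3A and 0.07 for TET3 in the authors' deposited tables.

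Chromatin genes of short RefSeq span lay mostly above 0 with siPCF11. Of the 21 with a span of up to 25 kb, 19 were above 0 with siPCF11 (median 0.29), the exceptions being PCGF1 and KDM6B. Among all listed genes of that span, 51.7% were above 0 with siPCF11 (median 0.018). With siScram 11 of 20 of the short-span chromatin genes were above 0 (median 0.021), against 47.7% of all listed genes of that span (median -0.021). After window centring 18 of 21 were above 0 with siPCF11 (50.8% of all listed genes of that span). The ratio was higher with siPCF11 than with siScram in 17 of the 20 listed with both, against 53.2% of all genes of that span. They come from 8 roles and include CBX2, MEN1, DPF1, KAT2A and INO80E at the top and KAT5, HDAC3 and DPF2 just above 0. The 45 chromatin genes over 75 kb had a siPCF11 median of -0.092, with 19 above 0, and all listed genes over 75 kb one of -0.070. Across chromatin genes the Spearman rho of span with the ratio was -0.36 with siPCF11 (103 genes) and -0.15 with siScram (99 genes), and across all listed genes it was -0.072 and 0.025, as a description over genes that share their libraries. The span limits were chosen after the values were seen. By the authors' length classes, 18 of 24 short-class chromatin genes were above 0 with siPCF11 (median 0.16), against 52.0% of all short-class genes (median 0.022). Of the long class 38 of 79 were above 0 (median -0.056), against 47.0% of all long-class genes (median -0.030).

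**Figure D5:**
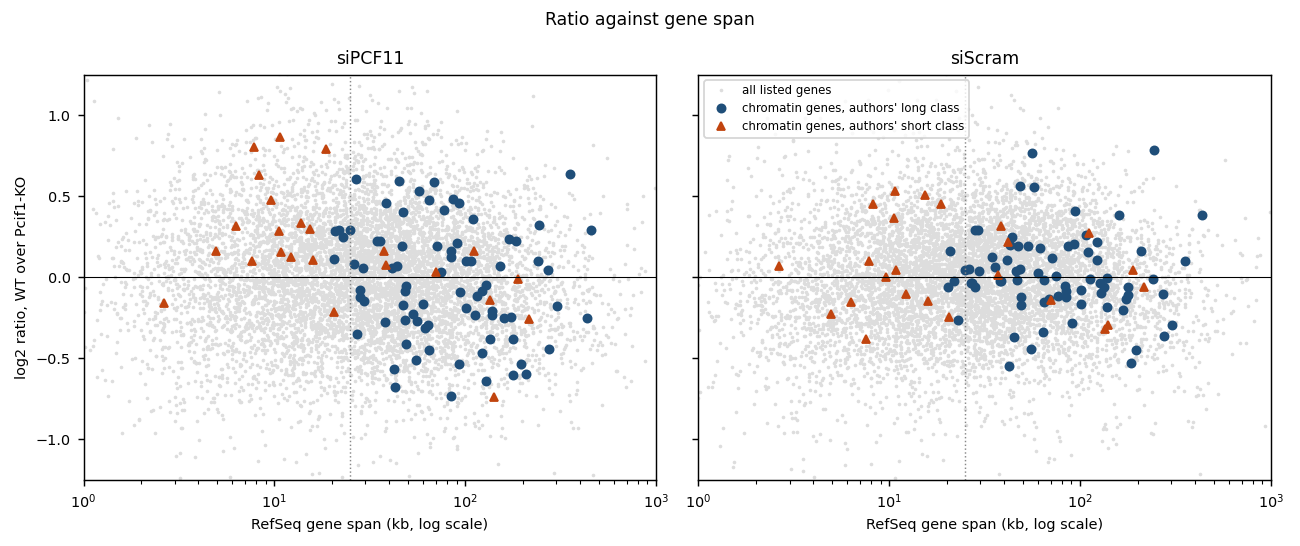
Log2 ratio of WT over Pcif1-KO (y axis) against RefSeq gene span (kb, log x axis) with siPCF11 (left) and siScram (right) for chromatin genes of the authors' long and short classes, over all listed genes (grey). Genes beyond the axis ends are not drawn, and the dotted line marks 25 kb, left of which 19 of 21 chromatin genes are above 0 with siPCF11 and 11 of 20 with siScram.

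By the authors' m6Am classes, the medians of the chromatin genes lay close together. With siPCF11 the median was 0.058 over 53 m6Am genes and 0.054 over 50 non-m6Am genes, and with siScram it was 0.039 over 53 and -0.026 over 46. For all listed genes the m6Am and non-m6Am medians were 0.028 and -0.047 with siPCF11, and -0.0023 and -0.020 with siScram. With siScram 30 of 53 m6Am chromatin genes (56.6%) and 18 of 46 non-m6Am ones (39.1%) were above 0, against 49.6% of all m6Am and 48.0% of all non-m6Am genes. Past 0.5 in either direction there were 11 m6Am chromatin genes (20.8%, against 18.6% of all m6Am genes) and 8 non-m6Am ones (16.0%, against 16.5%) with siPCF11. With siScram there were 5 m6Am (9.43%, against 13.9%) and 3 non-m6Am chromatin genes (6.52%, against 12.2%). With siScram the 5 m6Am genes were all above 0.5, namely CBX2, RNF2, HDAC8, KDM3A and SMARCD1. Of all 4103 m6Am genes listed with siScram, 287 were above 0.5 and 284 below -0.5. These one-sided counts were not tested.

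Partner genes outside the symbol rule were taken from a written list of 126 symbols, of which 113 had a ratio. Their median was 0.015 with siPCF11 and 0.026 with siScram. With siPCF11, 12 of 113 were above 0.5 and 6 below -0.5, where 8.81% and 8.7% of all listed genes were. With siScram 9 of 108 were above and 8 below, where 6.11% and 6.98% of all listed genes were. limma called 2 of 108, both higher in Pcif1-KO cells, where it called 5.49% of all genes tested. KMT5B, an H4K20 methyltransferase gene on chromosome 11, was at -0.83 with siPCF11 and -0.92 with siScram in the authors' deposited tables (mean -0.87 ± 0.20, adjusted p = 0.00086 in limma, and 0.0501 after window centring). EPC1, a TIP60 complex subunit gene, was at -0.90 with siPCF11 and -0.61 with siScram in the authors' deposited tables (mean -0.76 ± 0.20, adjusted p = 0.0063 in limma, and 0.033 after window centring). The highest partner with siPCF11 was the NuRD gene MBD3 at 0.91 and the lowest the ISWI gene BAZ1A at -0.91 in the authors' deposited tables. With siScram the highest was the acetyltransferase subunit gene MEAF6 at 0.99 and the lowest KMT5B, per the authors' deposited tables.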

How the data were processed

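Nuclear RNA of Pcif1-KO and WT cells was sequenced from mRNA 3′ ends, per the labels' protocols. The submitters' processing notes list, without roles, DESeq2 1.30.1, HTSeq 2.0.1, STAR 2.7.10a, cutadapt 3.7, bcl2fastq 2.20 and the build hg38. The authors deposited 2 tables of log2 ratios, WT over Pcif1-KO by the table titles, in 8 columns by length class, m6Am class and siRNA. The sources used here do not give library scaling, shrinkage, gene filters or class limits, and depth is unknown. A 3′ end ratio can also change where the cleavage site moves.

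IDs were matched without version to symbols (8792 of 8801) and to RefSeq GRCh38.p14 spans (8725, all 104 chromatin genes among them). limma 3.58.1 in R 4.3.3 tested the mean of both ratios against 0, two-sided, with 1 residual degree of freedom, Benjamini-Hochberg adjustment and a threshold of 0.05, and was tested on simulated data. Its p-values set a gene's mean against 1 SD pooled over all genes tested, and a gene's own spread does not enter. That SD comes from the differences between the 2 ratios, which may be technical. Centring took off the median of the gene's chromosome, or of its 10 Mb window. A window needed at least 15 genes with a ratio, the gene itself included, and otherwise the chromosome median was used. Each gene was left out of its own median. Any gene of the symbol rule could be named, except 1 that enters the counts and is not reported by name here. Of the partners, the highest, the lowest and those called were named, and BMI1 beside the PCGF genes. The gene rule and lists were chosen with earlier results of these data known, and the span limits and demethylase counts after these values were seen.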

Additional observations from a re-analysis of the deposited data

Results flagged for a closer look

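EZH1 was the chromatin gene whose 2 ratios lay on opposite sides of 0, each by more than the SD of 0.28 that limma used. Its ratio was 0.97 higher with siPCF11 than with siScram on the log2 scale, at 0.59 and -0.37 in the authors' deposited tables. With 1 ratio per siRNA the difference was not tested.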

How the results depend on the processing

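No paired analysis was possible because each group has 1 library and the labels give no replicate numbers, beyond the pairing by siRNA that the deposited ratios already hold. The medians of the chromatin genes moved by under 0.05 with all-gene, chromosome and window centring, without chromosomes 11, 20, 21 and X, without the HP1 and 2 further SNF2 genes, and with genes listed for both siRNAs. Counts past a size followed the size: at 0.3 they were 20 above and 18 below with siPCF11 and 13 above and 9 below with siScram, and at 1 all were 0. With window centring the siScram count below -0.5 was 0. limma called 2 chromatin genes as deposited, 1 with long and short genes fitted apart (CBX2) and 6 at an adjusted p under 0.1, which added HDAC8, KAT2A, RNF2 and SETD1B. Chromosome and window centring each called 3, CBX2, HDAC8 and MEN1, of which 1 was shared with the deposited values. The share of all genes called is given only for the deposited values at 0.05 (5.49%). Counts under the other settings therefore cannot be set against a background. Of 52 refits of 13 single genes, 45 kept their side of the threshold, 3 lost it (DPF1), 4 gained it (HDAC8 and MEN1) and 0 changed sign. Fitting by length class leaves a mean as it is and all-gene centring hardly moved it, so neither could change a sign. Only CBX2 and DPF1 passed as deposited, so most refits that kept their side stayed uncalled. As depth is unknown, no counting error can be given for a ratio. Added after seeing the data, spans of up to 20 and 30 kb put 14 of 15 and 22 of 28 chromatin genes above 0 with siPCF11.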
